A study of Mus musculus with 24 samples.

Results

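The 10 genes described here are *Lgr5*, *Olfm4*, *Ascl2*, *Smoc2*, *Axin2*, *Rnf43*, *Znrf3*, *Tnfrsf19*, *Cdk6* and *Prom1*, which are used as markers of intestinal stem cells or as targets and regulators of Wnt signalling. They were taken by symbol from the deposited tables of read counts and of normalized fragments (FPKM), and each of the 10 was found once among 56691 genes. The rule names the genes by symbol and uses no measured value.

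Intestinal stem cells sit at the base of the crypts between Paneth cells, and Wnt ligands together with R-spondins keep them dividing. R-spondins bind LGR4, LGR5 and LGR6 and so remove RNF43 and ZNRF3, the ubiquitin ligases that clear Frizzled receptors from the cell surface. The retained receptors stabilise beta-catenin, which acts with TCF factors in the nucleus to switch on targets such as *Axin2*, *Ascl2*, *Lgr5*, *Rnf43* and *Tnfrsf19*.

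Poly(A) RNA of the distal jejunum was sequenced from 24 mice, with 1 library per mouse and 3 mice in each of 8 groups. The groups combined sex, genotype (wild type, or a germline disruption of *Ptk6*, written *Ptk6*-/-) and treatment (regular water, or 100 mM succinate for 7 days). *Ptk6* encodes an intracellular tyrosine kinase of the epithelium, and the study asked whether its loss acts differently in males and females and alters the response to succinate, a metabolite that activates tuft cells. The knockout strain had been backcrossed into C57BL/6, and mice of 9 to 11 weeks were age-matched and came from different litters of 1 colony. Whole tissue was used, so for every gene below fewer cells of a type and less RNA per cell cannot be told apart.

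Total counts were 8080321 to 52824743 per library (median 43017686.5). *Ptk6* had 7 to 61 counts in the *Ptk6*-/- libraries and 284 to 2405 in the wild type ones, and the summed level of 10 enterocyte markers was 16620 to 52970 CPM (library-scaled counts, after TMM normalization) in the 24 libraries. There were 3 libraries that stood apart. Replicate 1 of the male wild type controls had 51.2% of its counts on the 18S ribosomal gene *Rn18s-rs5*. Replicate 1 of the succinate-treated male *Ptk6*-/- mice had the lowest total and 29.7% on that gene. Replicate 2 of the succinate-treated female wild type mice held 17370 CPM of 8 heart muscle transcripts, against 17.3 to 222 in the other libraries. Libraries also differed in how strongly CPM depended on gene length.

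The crypt base receptor *Lgr5* (ENSMUSG00000020140) lies on the minus strand at chr10:115286216-115423685 of GRCm39, the build of all positions of the deposited genes. *Olfm4* (ENSMUSG00000022026, chr14:80221521-80260579, plus strand) encodes a secreted glycoprotein that is abundant in crypt base cells of the small intestine. *Ascl2* (ENSMUSG00000009248, chr7:142520566-142523001, minus strand) encodes a transcription factor needed for stem cell identity. *Smoc2* (ENSMUSG00000023886, chr17:14499768-14625052, plus strand) encodes a secreted calcium-binding matrix protein. *Prom1* (ENSMUSG00000029086, chr5:44150962-44259300, minus strand) encodes the membrane glycoprotein CD133.

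*Axin2* (ENSMUSG00000000142, chr11:108811175-108841609, plus strand) encodes a scaffold of the complex that degrades beta-catenin and is a general Wnt target that acts as negative feedback. The ligase genes are *Rnf43* (ENSMUSG00000034177, chr11:87553548-87625366, plus strand) and *Znrf3* (ENSMUSG00000041961, chr11:5226324-5394847, minus strand), so 3 of the 10 genes are on chromosome 11. *Tnfrsf19* (ENSMUSG00000060548, chr14:61201324-61283939, minus strand) encodes the TNF receptor family member TROY. *Cdk6* (ENSMUSG00000040274, chr5:3391485-3572225, plus strand) encodes a kinase that drives entry into the cell cycle. Overlapping genes on the same strand were small. *1110028F11Rik*, which overlaps *Rnf43*, had 177 counts over the 24 libraries against 17208 for *Rnf43*, and *Gm42716*, which overlaps *Prom1*, had 32 against 43615.

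*Olfm4* was the most abundant of the 10 genes per unit length, with 6.85 FPKM in the lowest library, a median of 49.5 and 135.5 in the highest, and it stood above each of the other 9 in every library. *Axin2* followed with a median of 6.84 FPKM (1.29 to 17.6). The medians of *Prom1* and *Smoc2* were 4.51 (1.31 to 7.18) and 4.17 FPKM (0.374 to 5.72). *Prom1* exceeded *Smoc2* in 11 of the 24 libraries, so these neighbours did not differ beyond their spread. *Axin2* exceeded *Prom1* in 18 libraries.

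Lower in the order, the median was 2.23 FPKM for *Ascl2*, 1.72 for *Rnf43*, 0.827 for *Tnfrsf19*, 0.609 for *Cdk6*, 0.527 for *Lgr5* and 0.331 for *Znrf3*. *Ascl2* exceeded *Rnf43* in 14 of the 24 libraries and *Tnfrsf19* exceeded *Cdk6* in 12, which leaves these pairs unordered. *Rnf43* exceeded *Tnfrsf19* in 24 libraries, and *Cdk6* exceeded *Lgr5* as *Lgr5* exceeded *Znrf3* in 19 each. The ranks were the same when CPM were divided by gene length. *Lgr5*, the defining marker of these cells, was thus next to last. For 8 of the 10 genes the lowest FPKM was in the succinate-treated male *Ptk6*-/- replicate 1, whose counts were 3 for *Ascl2*, 5 for *Tnfrsf19* and 12 for *Lgr5*.

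**Figure D1:**
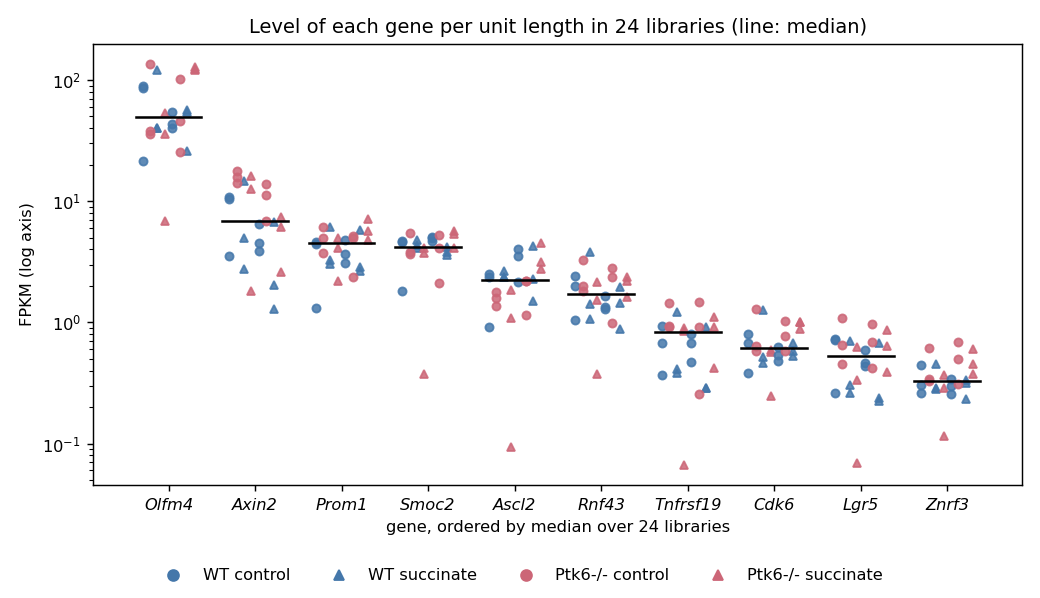
FPKM on a log axis (y) for each of the 10 genes (x, ordered by median), with 1 point per library (circles, control; triangles, succinate; blue, wild type; red, Ptk6-/-) and the median of 24 libraries as a line. The medians run from 49.5 for Olfm4 to 0.331 for Znrf3, and the lowest Ascl2, Tnfrsf19 and Lgr5 points belong to the library with 8080321 counts.

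The spread between mice of a group set what could be told apart. As a pooled SD of log2(CPM + 1) within groups it was 0.659 for *Axin2*, 0.623 for *Olfm4* and 0.572 for *Tnfrsf19*, and 0.245 for *Znrf3* and 0.305 for *Cdk6*. The highest library exceeded the lowest by 12.4-fold in CPM for *Axin2*, 11.9-fold for *Ascl2* and 2.29-fold for *Cdk6*. Without the 3 libraries that stood apart these ratios were 7.9-fold, 4.22-fold and 2.29-fold, and the *Ascl2* minimum among all 24 rests on 3 counts. *Olfm4* shows how uneven groups could be. In the male *Ptk6*-/- controls it stood at 458, 140.3 and 143 CPM.

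RefSeq promoters (build GRCm38.p6, 250 bases before each start to 50 after) were matched for 7 of the 10 genes, 10 starts in all. They were searched on both strands for CTTTGAT and CTTTGAA, the core of the sequence that TCF factors recognise, motifs that differ in their last letter. A match was present at 1 of the 10 starts, a start of *Tnfrsf19*, while 8.7% of the 32851 promoters in the table held one (3.7% CTTTGAT and 5.1% CTTTGAA). The 250 bases before the start are printed 5′ to 3′ for *Axin2* (chr11:108920099-108920348, plus strand) and *Ascl2* (chr7:142969265-142969514, minus strand), the genes whose male control libraries did not overlap between genotypes, and for *Tnfrsf19* (chr14:61037988-61038237, minus strand), the gene that holds the match. Capitals mark the match, which reads CTTTGAT on the opposite strand.
Axin2: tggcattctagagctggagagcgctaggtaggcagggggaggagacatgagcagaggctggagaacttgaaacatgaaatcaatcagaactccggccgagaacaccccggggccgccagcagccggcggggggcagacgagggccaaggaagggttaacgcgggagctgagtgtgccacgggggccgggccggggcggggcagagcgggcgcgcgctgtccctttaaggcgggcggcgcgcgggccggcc
Ascl2: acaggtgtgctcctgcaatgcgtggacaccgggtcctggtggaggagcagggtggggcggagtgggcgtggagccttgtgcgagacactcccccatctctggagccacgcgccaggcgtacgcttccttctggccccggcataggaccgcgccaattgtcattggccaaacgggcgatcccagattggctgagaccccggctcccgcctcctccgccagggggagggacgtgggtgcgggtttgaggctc
Tnfrsf19: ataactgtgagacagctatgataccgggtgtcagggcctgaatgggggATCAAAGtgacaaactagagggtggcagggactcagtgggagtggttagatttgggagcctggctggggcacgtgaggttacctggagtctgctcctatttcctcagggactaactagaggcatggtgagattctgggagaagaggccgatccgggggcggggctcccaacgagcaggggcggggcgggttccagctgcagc
The *Axin2* and *Ascl2* stretches are rich in G and C (69.2% and 67.6%) and the *Tnfrsf19* stretch less so (59.2%). These 7-letter matches describe the window and nothing about binding.

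The effect of *Ptk6* loss was first compared in control males. *Axin2* was higher in *Ptk6*-/- mice, with 56.4, 72.2 and 75.9 CPM in the wild type libraries and 111, 108 and 104 in the *Ptk6*-/- libraries. The lowest *Ptk6*-/- mouse stood above the highest wild type mouse. Group means were 68.2 ± 10.3 and 108 ± 3.52 CPM (SD, n = 3). This is a log2 fold change of 0.64, with a standard error (SE) of 0.12 and an adjusted p of 0.0346 in edgeR. *Axin2* was the 1 gene of the 10 that passed the adjusted threshold of 0.05, and 4.23% of the 19218 genes tested passed it in this comparison.

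That call depended on the processing and on single mice. It held without wild type replicate 1, the library rich in 18S RNA (log2 fold change 0.56, edgeR adjusted p = 0.0364), and without *Ptk6*-/- replicate 1 (adjusted p = 0.0413). It was lost without wild type replicate 2 (adjusted p = 0.117) or 3 (0.0828) and without *Ptk6*-/- replicate 2 (0.0975) or 3 (0.123), with log2 fold changes of 0.64 to 0.70. Over all genes the calls fell from 813 to 4, 3, 6 and 2 in those 4 fits. Regressing gene-centred log2 CPM on log2 length, the length slope was -0.0936, -0.0125 and -0.00476 in the male wild type controls and 0.163, 0.106 and 0.0989 in the male *Ptk6*-/- controls. With an offset for that slope the *Axin2* difference was 0.51 (edgeR adjusted p = 0.0753), and the genes called in all went from 813 to 70. The call was also lost with the replicate block (edgeR adjusted p = 0.0646), by limma on FPKM (0.652 and 0.733) and with all 24 libraries in 1 fit (0.93).

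*Ascl2* lay the other way in control males, with 4.37, 4.845 and 5.20 CPM in wild type and 3.34, 2.75 and 3.48 in *Ptk6*-/- mice. Its libraries did not overlap either, and it differed by -0.61 on the log2 scale (SE 0.20, edgeR adjusted p = 0.111), and by -0.63 without the 18S-rich library (adjusted p = 0.116). On log2(FPKM + 1) the difference was -0.14 by limma (adjusted p = 0.887). *Axin2* and *Ascl2* were the 2 of 10 genes without overlap, where 31.4% of all genes tested had none. For *Lgr5* the wild type libraries held 7.925, 9.41 and 9.41 CPM and the *Ptk6*-/- libraries 12.7, 5.89 and 9.04. The *Ptk6*-/- mice thus spanned the wild type range, and the log2 fold change was 0.030 with a 95% interval of -0.71 to 0.77 on 4 residual degrees of freedom. Of the 10 estimates 5 were positive and 5 negative, and their median was close to 0, as it was over all genes (0.017).

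In control females, *Axin2* held 48.6, 30.7 and 34.6 CPM in wild type and 88.1, 77.55 and 62.6 in *Ptk6*-/- mice. The groups again did not overlap. The log2 fold change was 1.04 (SE 0.26), larger than in males but with a larger error, and edgeR's adjusted p was 0.367. DESeq2 called it (adjusted p = 0.0289), and so did edgeR without *Ptk6*-/- replicate 3 (1.18, adjusted p = 0.0275), where *Rnf43* was called too. DESeq2 called 390 genes in all, and edgeR called 2814 without that mouse. In edgeR's test of all 6 libraries none of the 10 (0) reached the threshold and 1 was under an unadjusted 0.05, while 3 of 19035 genes passed (0.0158%).

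Across the 10 genes 8 estimates were positive and 2 negative, with a median of 0.37 against 0.0425 over all genes.

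*Znrf3*, whose product limits Frizzled at the surface, held 2.82, 3.89 and 3.33 CPM in wild type and 6.35, 4.99 and 4.04 in *Ptk6*-/- females (log2 fold change 0.65, edgeR adjusted p = 0.46). *Cdk6* held 9.23, 10.9 and 12.2 against 16.9, 13.8 and 13.4 CPM (0.48, adjusted p = 0.475, and 0.24 with the length offset and 0.21 by limma on log2(FPKM + 1)). *Smoc2* held 47.3, 50.9 and 45.0 against 42.4, 36.0 and 24.3 CPM (-0.44, adjusted p = 0.541, and -0.23 without *Ptk6*-/- replicate 3). With *Axin2* these were 4 of 10 genes whose groups did not overlap, *Smoc2* lower and the others higher in *Ptk6*-/-, beside 18.9% of all genes. *Ascl2* overlapped here, at 4.75, 9.39 and 7.97 CPM in wild type and 4.13, 2.38 and 5.86 in *Ptk6*-/- (-0.81, edgeR adjusted p = 0.484, and -0.53 without *Ptk6*-/- replicate 2).

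**Figure D2:**
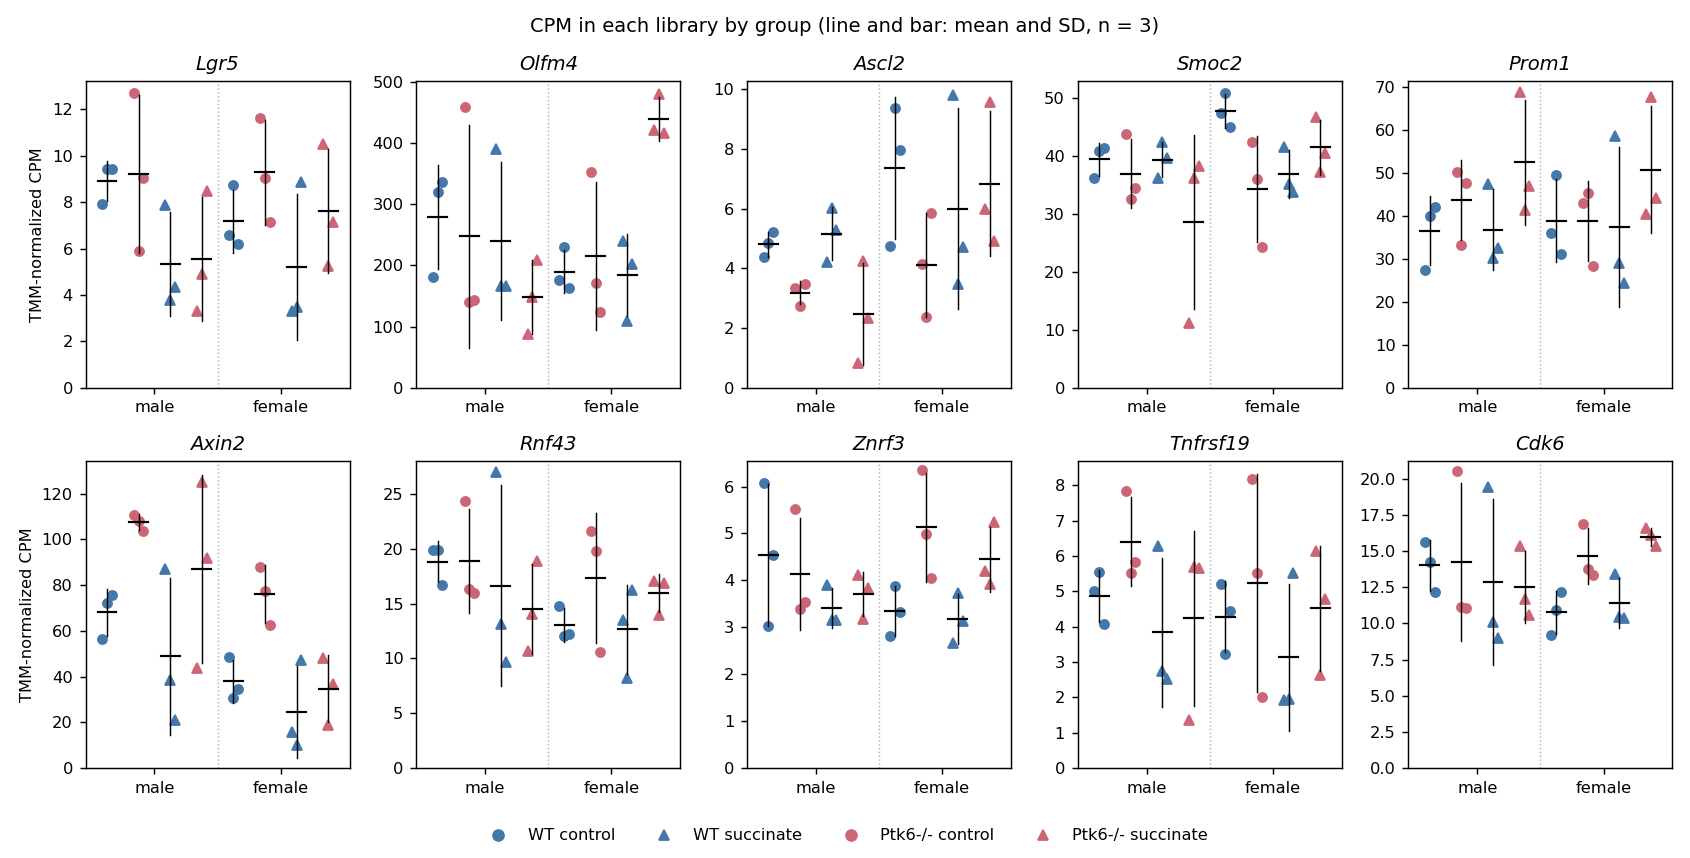
TMM-normalized CPM (y, from 0) of each of the 10 genes in every library, by sex (x) and, from left to right within a sex, wild type control, Ptk6-/- control, wild type succinate and Ptk6-/- succinate (circles, control; triangles, succinate; blue, wild type; red, Ptk6-/-); lines and bars are the mean and SD of 3 mice. Axin2 in controls is higher in Ptk6-/- than in wild type mice of either sex without overlap (104 to 111 against 56.4 to 75.9 CPM in males), and Olfm4 is at 415 CPM or above in each succinate-treated Ptk6-/- female.

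Among mice given succinate, the genotypes were compared again within each sex. In males edgeR called 0 of the 10, with 0 under an unadjusted 0.05 and 0 by DESeq2, and 0 of 18904 genes (0%), where 514 genes were under an unadjusted 0.05 and DESeq2 called 67. No member was without overlap there, beside 8.66% of all genes. *Axin2* held 87.2, 38.5 and 20.9 CPM in wild type and 43.9, 125 and 92.1 in *Ptk6*-/- males (log2 fold change 0.85, SE 0.57, edgeR adjusted p = 1). Dropping wild type replicate 3 gave 0.48, dropping replicate 2 of *Ptk6*-/- gave 0.50 and dropping wild type replicate 1 gave 1.60. It was 1.11 without the library of the lowest total. *Ascl2* held 4.22, 6.01 and 5.28 against 0.823, 4.24 and 2.33 CPM (-0.97, adjusted p = 1), and the lowest of these values rests on 3 counts. Without that library the *Ascl2* difference was -0.68 (edgeR adjusted p = 0.822), and without *Ptk6*-/- replicate 2 it was -1.57.

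In succinate-treated females *Olfm4* held 240, 109.5 and 203 CPM in wild type and 420.3, 480.3 and 415 in *Ptk6*-/- mice, with a wide gap between the groups. Its log2 fold change of 1.25 (SE 0.39) had an edgeR adjusted p of 0.931, in a comparison where 0 of 19180 genes passed (0%), 867 were under an unadjusted 0.05 and DESeq2 called 27. Without the wild type library that held heart muscle transcripts, the lowest of the 6, the value was 0.97 (adjusted p = 1). *Cdk6* held 13.4, 10.5 and 10.35 against 16.6, 16.1 and 15.3 CPM (0.49, adjusted p = 0.931), and *Znrf3* 2.66, 3.73 and 3.14 against 4.19, 3.925 and 5.24 (0.50, adjusted p = 0.931). Without the library with heart transcripts *Cdk6* differed by 0.41 and *Znrf3* by 0.60. These 3 of 10 genes did not overlap, beside 10.8% of all genes. *Axin2*, at 15.9, 10.1 and 47.4 against 48.2, 19.0 and 36.9 CPM, did overlap (0.51, edgeR adjusted p = 0.944). Its value rested on single mice, at 0.13 without the wild type library with heart transcripts, 0.28 without wild type replicate 1, 0.18 without *Ptk6*-/- replicate 1, 0.80 without *Ptk6*-/- replicate 2 and 1.42 without wild type replicate 3. The summed level of 10 enterocyte markers was 26060 to 34950 CPM in these wild type females and 16620 to 19350 in the *Ptk6*-/- females, without overlap, with 0 of the 10 markers called by edgeR, and its part in the values here was not tested. All 10 estimates in succinate-treated females were positive, with a median of 0.49 against -0.034 over all genes, 1 gene had an unadjusted p under 0.05, and 0 passed.

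The succinate effect was then taken in each of the 4 sex and genotype pairs, with the same control mice as above. In wild type males *Lgr5* held 7.925, 9.41 and 9.41 CPM in controls and 7.89, 3.76 and 4.34 after succinate. The groups did not overlap, by a narrow margin set by succinate replicate 1, and *Lgr5* differed by -0.75 on the log2 scale (SE 0.32, edgeR adjusted p = 0.947). Without that mouse the value was -1.18 and passed (adjusted p = 0.0151), as did *Axin2* (-1.24, adjusted p = 0.0232) and *Rnf43*, in a fit where edgeR called 2706 genes in all. With every library kept, *Axin2* was at -0.49 (edgeR adjusted p = 0.947) and *Rnf43* at -0.19 (0.958). Over the left-out libraries *Axin2* ran from -1.24 to -0.13. Without control replicate 1, the 18S-rich library, *Lgr5* differed by -0.79 (adjusted p = 0.993). With it, 0 of 19183 genes passed (0%), although 781 were under an unadjusted 0.05 and DESeq2 called 50. There 1 of the 10 had an unadjusted p under 0.05, and *Lgr5* was the 1 of 10 without overlap, beside 8.77% of all genes.

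In *Ptk6*-/- males 0 of 18966 genes passed (0%), 1470 were under an unadjusted 0.05 and DESeq2 called 39, and none of the 10 was free of overlap, while 23% of all genes were. *Lgr5* held 12.7, 5.89 and 9.04 CPM in controls and 3.29, 4.89 and 8.49 after succinate (log2 fold change -0.68, edgeR adjusted p = 0.627). It was -0.50 without the library of the lowest total, -0.35 without control replicate 1 and -1.08 without succinate replicate 3. In wild type females 0 of 18872 genes passed (0%), 1466 were under an unadjusted 0.05 and DESeq2 called 262. Over the left-out libraries edgeR called 0 to 598 genes there, and 0 of the 10 in each fit. *Lgr5* held 6.56, 8.74 and 6.20 against 3.31, 3.50 and 8.86 CPM (-0.44, adjusted p = 0.834), and differed by -0.22 without the library with heart transcripts, -0.20 without succinate replicate 1, -0.27 without control replicate 2 and -1.03 without succinate replicate 3. *Smoc2*, at 47.3, 50.9 and 45.0 against 41.5, 35.1 and 33.75 CPM, was the 1 of 10 without overlap there, beside 13.3% of all genes (-0.36, adjusted p = 0.715, and -0.31 without the library with heart transcripts). Enterocyte markers summed to 42860 to 49640 CPM in the control and 26060 to 34950 in the succinate-treated wild type females, also without overlap. In both comparisons 9 of the 10 estimates were negative and 0 had an unadjusted p under 0.05. The median of the 10 was -0.32 in *Ptk6*-/- males and -0.17 in wild type females, against -0.097 and 0.0265 over all genes. DESeq2 and limma called 0 of the 10 in each of the 4 succinate comparisons.

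In *Ptk6*-/- females *Olfm4* held 352, 170.5 and 124 CPM in controls and 420.3, 480.3 and 415 after succinate (log2 fold change 1.00, SE 0.43, edgeR adjusted p = 0.464), and the value was 1.56 without control replicate 1. *Axin2* held 88.1, 77.55 and 62.6 in controls and 48.2, 19.0 and 36.9 after succinate (-1.16, SE 0.37, adjusted p = 0.402). Neither overlapped, 2 of 10 genes where 21.2% of all genes had no overlap. In the same mice enterocyte markers summed to 19760 to 52970 CPM in controls and 16620 to 19350 after succinate, and stromal markers to 518.4 to 685.6 and 690.4 to 973.6, both without overlap. *Lgr5* held 11.6, 9.05 and 7.16 against 10.5, 5.25 and 7.14 CPM (-0.31, adjusted p = 0.778), and differed by -0.11 without control replicate 1 or succinate replicate 2 and by -0.60 without succinate replicate 1. Of the 10 genes 0 passed and 2 had an unadjusted p under 0.05, while 17 of 19334 genes passed (0.0879%), all 17 higher after succinate. DESeq2 called 442 genes in all, and edgeR 0 to 29 over the left-out libraries.

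**Figure D3:**
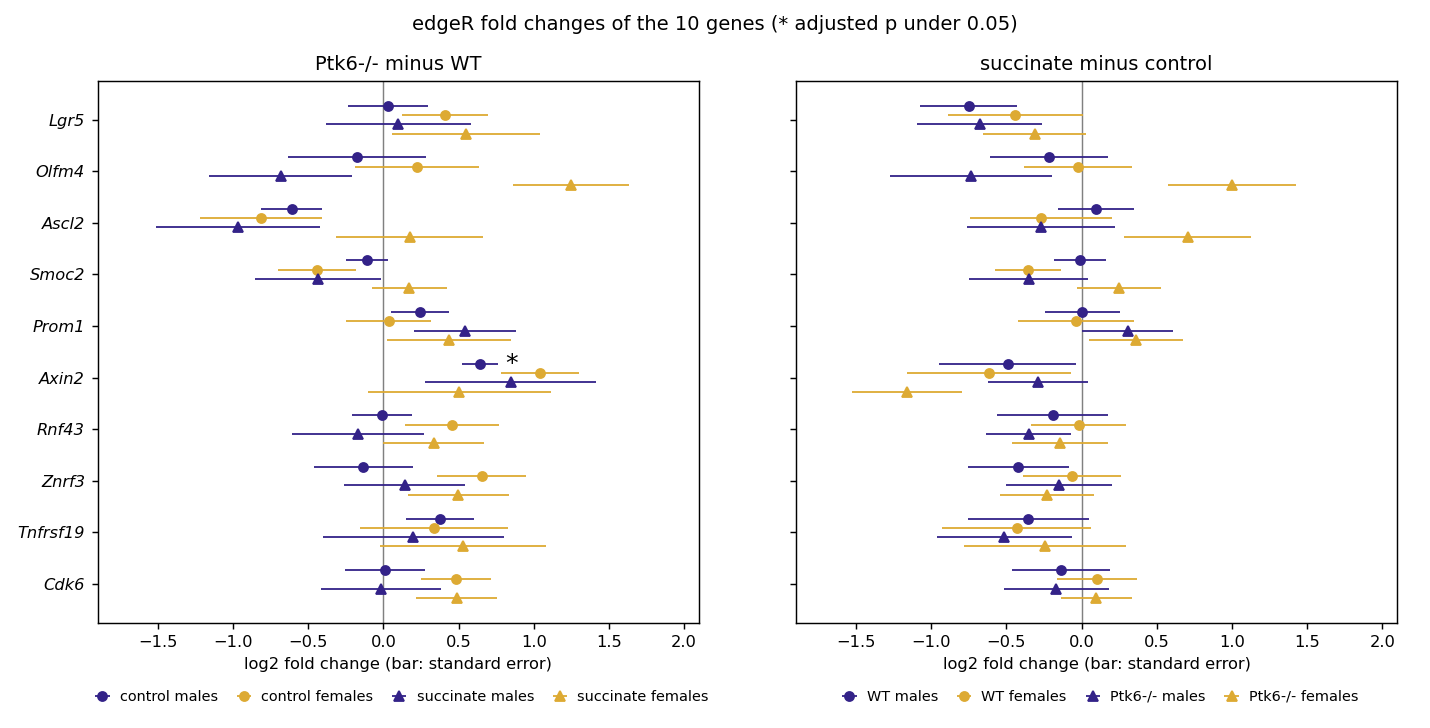
edgeR log2 fold change (x) of each of the 10 genes (y) with its standard error as a bar, for the genotype effect (left, Ptk6-/- minus wild type) and the succinate effect (right, succinate minus control), with 3 mice per group in every comparison. The star marks Axin2 in control males (0.64), the 1 estimate of those drawn that passed the adjusted threshold.

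Averages over groups used all 24 libraries in 1 fit with 16 residual degrees of freedom, so each rests on 12 mice a side. For succinate, *Lgr5* ranged from 5.89 to 12.7 CPM in the 12 control libraries (median 8.89) and from 3.29 to 10.5 in the 12 succinate libraries (median 5.07). *Axin2* ranged from 30.7 to 111 (median 74.0) and from 10.1 to 125 (median 41.2). The averaged log2 fold changes were -0.54 for *Lgr5* (SE 0.21, edgeR adjusted p = 0.218) and -0.64 for *Axin2* (0.25, adjusted p = 0.229), and neither passed. Of the 10 genes 0 passed and 2 had an unadjusted p under 0.05, beside 224 of 21694 genes that passed (1.03%, with 107 to 1185 genes over the left-out libraries, the lowest without wild type male succinate replicate 3). Without wild type female succinate replicate 3, which had the highest *Lgr5* and *Axin2* of its group, both passed (*Lgr5* -0.70, adjusted p = 0.0375, and *Axin2* -0.86, adjusted p = 0.0267), in a fit where 1185 genes were called in all. Without the 3 libraries that stood apart they were -0.45 (edgeR adjusted p = 0.443) and -0.49 (0.449).

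For genotype, *Axin2* ranged from 10.1 to 87.2 CPM in the 12 wild type libraries (median 42.95) and from 19.0 to 125 in the 12 *Ptk6*-/- libraries (median 82.8). *Ascl2* ranged from 3.47 to 9.825 (median 5.02) and from 0.823 to 9.59 (median 3.81). The averaged log2 fold changes were 0.75 for *Axin2* (SE 0.25, edgeR adjusted p = 0.299) and -0.55 for *Ascl2* (0.22, adjusted p = 0.332), and 0.71 and -0.57 without the 3 libraries that stood apart. By limma on log2(FPKM + 1) the *Ascl2* value was -0.32 (adjusted p = 0.58). Of the 10 genes 0 passed and 2 had an unadjusted p under 0.05, beside 6 of 21694 genes that passed (0.0277%). DESeq2 called 142 genes in all, and edgeR 2 to 376 over the left-out libraries.

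For sex, *Axin2* ranged from 20.9 to 125 CPM in the 12 male libraries (median 81.55) and from 10.1 to 88.1 in the 12 female libraries (median 42.1). *Ascl2* ranged from 0.823 to 6.01 (median 4.23) in males and from 2.38 to 9.825 (median 5.40) in females. The averaged female minus male differences were -0.92 for *Axin2* (SE 0.25, edgeR adjusted p = 0.116) and 0.64 for *Ascl2* (0.22, adjusted p = 0.189). DESeq2 called *Axin2* lower in females (-0.94, adjusted p = 0.0148), and so did edgeR without wild type female succinate replicate 3 (-1.15, adjusted p = 0.00862). DESeq2 called 696 genes in all, and edgeR 989 without that mouse. Without the 3 libraries that stood apart *Axin2* was at -0.92 and *Ascl2* at 0.64. In edgeR's test of all libraries 0 of the 10 genes passed and 2 had an unadjusted p under 0.05, beside 97 of 21694 genes that passed (0.447%).

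Whether the effects differed between groups was tested with 4 interaction terms in the same fit. For sex by genotype in controls, for genotype by succinate in males, for the same in females and for the term of all 3 factors, 0 of the 10 genes and 0 of 21694 genes passed (0%). None of the 10 had an unadjusted p under 0.05, nor was any called by DESeq2 or limma. Over all genes 520, 856, 1781 and 1299 were under an unadjusted 0.05 in these terms, in that order, and DESeq2 called 28, 107, 57 and 99. The genotype difference of *Axin2* in controls was thus not shown to differ between the sexes. *Olfm4* had the largest estimates of the 10 in the female term and in that of all 3 factors, 1.07 in females (SE 0.68, edgeR adjusted p = 0.727) and 1.59 for the term of all 3 factors (0.97, adjusted p = 0.86). Without the 3 libraries that stood apart these were 0.76 and 0.85. The female term was 1.62 without *Ptk6*-/- female control replicate 1, and the term of all 3 factors was 0.78 without *Ptk6*-/- male control replicate 1 and 1.05 without wild type male succinate replicate 1. By limma on FPKM the term of all 3 factors of *Olfm4* was larger, at 2.70 and 2.78 for the pseudocounts 1 and 0.1 (adjusted p = 0.359 and 0.382), and it was 2.14 at most over the left-out libraries.

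Wnt pathway, crypt, BMP, proliferation and regenerative genes outside the 10 were followed as 11 lists with 115 genes. In control males 3 were higher and 2 lower in *Ptk6*-/- among 111 tested (4.5%, beside 4.23% of all genes), with a median log2 fold change of 0.063 over the lists. *Lrp5*, a Wnt co-receptor, was 68.3 ± 6.58 CPM in wild type and 112 ± 9.29 in *Ptk6*-/- males (SD, n = 3), higher by 0.69 on the log2 scale (edgeR adjusted p = 0.0296). *Dvl3*, which relays the signal from Frizzled, was 26.3 ± 1.04 and 45.9 ± 2.65 CPM (0.79, adjusted p = 0.023), and *Ets2*, a transcription factor, 88.0 ± 8.09 and 129.7 ± 4.38 (0.54, adjusted p = 0.0372). The ligand gene *Wnt4* was 9.06 ± 0.617 and 5.55 ± 0.492 CPM (-0.73, adjusted p = 0.0489). *Stmn1*, a microtubule regulator of dividing cells, was 102.6 ± 3.45 and 57.6 ± 1.88 CPM (-0.85, adjusted p = 0.02).

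Each of these 5 calls was lost without replicate 2 or 3 of either genotype, that of *Wnt4* also without replicate 1 of either. Their log2 fold changes stayed at 0.64 to 0.74 for *Lrp5*, 0.74 to 0.83 for *Dvl3*, 0.51 to 0.59 for *Ets2*, -0.79 to -0.66 for *Wnt4* and -0.90 to -0.79 for *Stmn1* over the left-out libraries. All 5 were lost with the replicate block (edgeR adjusted p = 0.0539 to 0.0884), with limma and with all 24 libraries in 1 fit. With the length offset alone *Stmn1* still passed (-0.72, edgeR adjusted p = 0.0452) but with the block added it did not (adjusted p = 0.101), while *Lrp5* stood at 0.42 (adjusted p = 0.119) and *Dvl3* at 0.61 (0.0632). Of the other crypt base stem cell genes, the R-spondins, the TCF and partner genes and the BMP genes, 0 passed for genotype in controls of either sex. Summed over the 8 TCF and partner genes, CPM were without overlap in controls of both sexes. In males they were 127.6 to 135.5 in wild type and 162.4 to 188.5 in *Ptk6*-/- mice, and in females 112.4 to 120.4 and 141 to 186.7. In control males the summed Wnt receptors (357.6 to 405.7 against 498.3 to 529.9 CPM) and the transducers with the destruction complex (935.5 to 1349 against 1369 to 1591) were without overlap too. Beside these, single genes were without overlap for 31.4% of those tested in control males and 18.9% in control females. Under succinate the TCF and partner sums overlapped between genotypes. They were 126.3 to 168.4 CPM in wild type and 141.2 to 169.7 in *Ptk6*-/- males, and 123.3 to 129.4 and 95.8 to 133.4 in females. The length slope also separated the male control libraries, as given above, and its part in the control sums was not tested. In the 2-group comparisons other than control males 0 of the lists' genes passed. Some sums separated there too. The regenerative genes summed to 134.5 to 163.9 CPM in succinate-treated wild type males. Their controls held 74.9 to 113.5 and succinate-treated *Ptk6*-/- males 71.0 to 88.3. After succinate the TCF and partner sum was lower in *Ptk6*-/- females (95.8 to 133.4, controls 141 to 186.7). The Wnt receptor sum was lower in *Ptk6*-/- males (406.6 to 458.3, controls 498.3 to 529.9), as was the BMP sum in wild type females. Averaged over groups, the single call in these lists was *Tcf7l2*, which encodes a TCF factor that pairs with beta-catenin. It was lower in females (-0.61, edgeR adjusted p = 0.0331), a call that held with 9 of the 24 libraries left out in turn, and that was lost without the 3 that stood apart (-0.47, edgeR adjusted p = 0.0903).

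The levels of the 10 genes were also compared across the 24 libraries as correlations of log2(CPM + 1), which describe libraries that share group effects, depth and length slope. Genes outside the 10 with a mean CPM of at least 1 were ranked by likeness to *Lgr5*, leaving out Gm and Rik symbols and genes without a symbol. The nearest were *Lman1* (r = 0.866), *Kif20a* (0.848), *Fut8* (0.846), *Xrn2* (0.834) and *Pde12* (0.833). Of the 10 genes *Tnfrsf19* was nearest (0.797), followed by *Rnf43* (0.725) and *Axin2* (0.622). For *Ascl2* r was -0.0205 and for *Prom1* -0.0299, but *Ascl2* was at -0.429 over the 21 libraries left without the 3 that stood apart, and *Prom1* at 0.566 on log2(FPKM + 1). Over those 21 libraries *Tnfrsf19* was at 0.716, *Rnf43* at 0.638 and *Axin2* at 0.573. After the group means were subtracted the values were 0.786 for *Tnfrsf19*, 0.719 for *Rnf43* and 0.718 for *Axin2*. Between members the highest r was 0.827, for *Rnf43* and *Tnfrsf19*, and after subtraction 0.828, for *Axin2* and *Tnfrsf19*.

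The same genes varied with the length slope of the library. Over 24 libraries its correlation with log2(CPM + 1) was 0.793 for *Tnfrsf19*, 0.632 for *Rnf43*, 0.589 for *Lgr5* and 0.577 for *Axin2*. For *Ascl2* it was -0.337, and -0.821 over the 21 libraries left without the 3 that stood apart, where *Tnfrsf19* reached 0.867 and *Axin2* 0.755. The slope was also uneven among mice of a group, at 0.128, -0.101 and -0.0678 in the succinate-treated wild type males, where replicate 1 had the highest *Axin2*, *Rnf43* and *Tnfrsf19*. In *Ptk6*-/- control females it was 0.0799, 0.134 and -0.106, and replicate 3, with the lowest slope, had the lowest *Axin2*, *Rnf43* and *Tnfrsf19*. Apart from the offset fits above, the part of the slope in these levels was not tested.

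**Figure D4:**
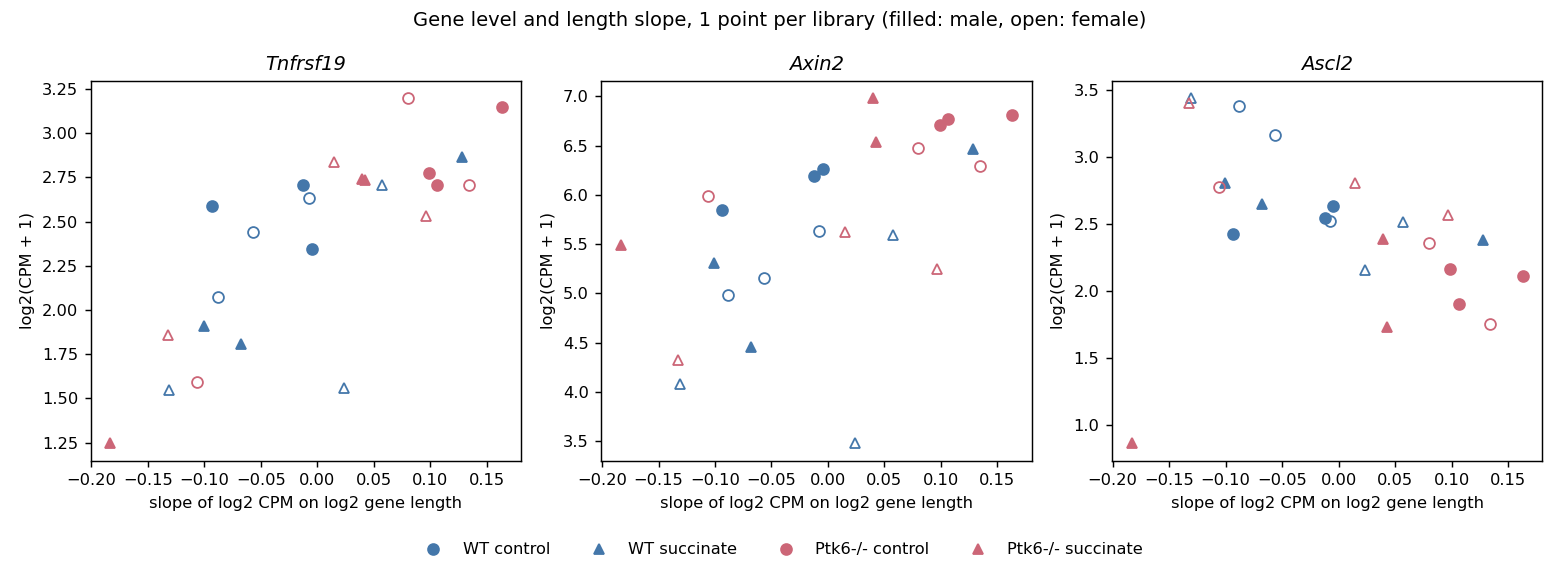
log2(CPM + 1) (y) of Tnfrsf19, Axin2 and Ascl2 against the length slope of the library (x), 1 point per library (circles, control; triangles, succinate; blue, wild type; red, Ptk6-/-; filled, male; open, female). Tnfrsf19 and Axin2 are higher in libraries with a higher slope (r = 0.793 and 0.577) and Ascl2 is lower (r = -0.337, with the library of 3 Ascl2 counts at the lower left).

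Summed levels of 8 marker lists of other cells also separated between some of the groups compared. Single genes did so for 8.66% to 31.4% of those tested, depending on the comparison, and the separation of the sums was not tested. In control males, Paneth cell markers gave 15140 to 17650 CPM in wild type and 5475 to 15060 in *Ptk6*-/- mice, although 0 of the 8 were called by edgeR, and tuft cell markers gave 38.4 to 41.5 and 29.7 to 37.6. Of 7 goblet markers 1, *Muc2*, was called higher there (by 1.31 on the log2 scale, edgeR adjusted p = 0.0378, and 0.93 with the length offset, adjusted p = 0.15). In control females, where *Axin2*, *Znrf3*, *Cdk6* and *Smoc2* did not overlap, stromal markers gave 446.1 to 506.7 CPM in wild type and 518.4 to 685.6 in *Ptk6*-/- mice, and lymphocyte markers 64.9 to 104.2 and 108.7 to 146.1.

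In succinate-treated males, lymphocyte markers gave 177 to 204.9 CPM in wild type and 75.95 to 111.6 in *Ptk6*-/- mice, and tuft cell markers 61.45 to 82.7 and 37.2 to 58.7. In succinate-treated females enterocyte markers separated, as given above, while stromal markers overlapped. After succinate, tuft cell markers were higher without overlap in wild type males, wild type females and *Ptk6*-/- females. Stromal markers were higher without overlap in females of both genotypes, and lymphocyte markers in wild type males. In *Ptk6*-/- males the enterocyte, smooth muscle and heart lists separated, with enterocyte markers at 18900 to 29580 CPM in controls and 30120 to 52850 after succinate. The smooth muscle margin was narrow, with at most 2746 CPM in controls and at least 2755 after succinate.

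In *Ptk6*-/- males the summed tuft cell markers overlapped, at 29.7 to 37.6 CPM in controls and 37.2 to 58.7 after succinate. Averaged over groups, *Ptk6*-/- males included, edgeR called 7 of 9 tuft cell markers higher after succinate, beside 1.03% of all genes. It also called 1 of 8 Paneth markers (*Ang4*, 1.75 on the log2 scale, adjusted p = 0.00452), 1 of 7 smooth muscle markers (*Actg2*, 1.12, adjusted p = 0.0356) and 1 of 8 heart muscle markers (*Actc1*, 3.62, adjusted p = 0.00843). For sex edgeR called *Ang4* and the tuft genes *Avil* and *Alox5ap* higher in females, beside 0.447% of all genes. Summed over the 10 genes, CPM were 591.1 to 655.6 in succinate-treated *Ptk6*-/- females and 215 to 400.4 in succinate-treated wild type females, a sum to which *Olfm4* adds most. The other 17 crypt base stem cell genes also separated there, at 711.2 to 785.8 and 500.3 to 641.1 CPM. The part of cell composition in the values of the 10 genes was not tested.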

How the data were processed

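The authors made dUTP-stranded poly(A) libraries, trimmed reads with Cutadapt, aligned them with HISAT2 and estimated expression with StringTie and ballgown. The submitters' processing notes list FastQC, StringTie and GRCm39. Counts were deposited without normalization, and the program that counted reads is not given in the sources used here. FPKM were deposited as the authors computed them, scaled to transcript length and library total, so an 18S-rich library has low FPKM throughout.

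Counts were tested in R 4.3.3 with edgeR 4.0.16 (quasi-likelihood, TMM) on genes reaching 10 counts in 3 or more libraries of a fit. Calls needed a Benjamini-Hochberg adjusted p under 0.05 over all genes tested. There were 8 comparisons of 2 groups (6 libraries, 4 residual degrees of freedom), 3 averages and 4 interactions (24 libraries). The study used DESeq2, and its rule also asks for a fold change of 2, tried here as an alternative. With 3 mice against 3, the smallest p of an exact permutation test is 0.1. Replicates were labelled as biological, and p-values measure the spread between mice. Correlations used a pseudocount of 1.

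Alternatives were DESeq2 1.42.0, DESeq2 scaling inside edgeR, dropping the low-count filter, asking for 10 counts in each library of the fit, a block for replicate number, an offset for gene length (from the ratio of deposited counts to FPKM, a relative length), limma 3.58.1 on log2(FPKM + 1) and log2(FPKM + 0.1) where mean FPKM reached 0.5, a joint fit of all 24 libraries, and leaving out each library or the 3 that stood apart. Leaving out those libraries in comparisons of 2 groups was added after the data were seen. Named genes were the 10 members, the called genes of each list (at most 3 per list and comparison), and the 5 genes nearest to *Lgr5*. The members, the lists and the tests were chosen with earlier results of these data known.

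Tested on simulated data with 200 changed genes, the test in control males recovered 45% at fold 2 and 88% at fold 4, with 16 unchanged genes called. For averaged succinate it recovered 71% and 93%, with 9 unchanged genes called. The simulated libraries held no differences in length slope, which separated the genotypes in control males. These rates therefore do not cover the effect of that slope on the calls.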

Additional observations from a re-analysis of the deposited data

How the results depend on the processing

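Over the alternatives and left-out libraries, 370 counts of called members stayed the same and 17 changed. The count of 1 in control males went to 0 with a fold change of at least 2, the replicate block, the length offset, both together, limma at either pseudocount and all 24 libraries in 1 fit. DESeq2 called 1 gene in control females and 1 for sex, against 0. Leaving out 1 library gave 0 to 1 in control males, 0 to 2 in control females, 0 to 3 for succinate in wild type males, 0 to 2 for averaged succinate and 0 to 1 for sex. The cause was not tested, beyond the fewer libraries and the offset's own construction.

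The *Axin2* difference in control males was 0.65 with the replicate block (edgeR adjusted p = 0.0646), 0.52 with the replicate block and length offset (0.128), 0.98 and 1.08 by limma (0.652 and 0.733) and 0.66 with all 24 libraries in 1 fit (0.93). DESeq2 called it (adjusted p = 7.11e-05). Its adjusted p was 0.0364 to 0.123 over the left-out libraries. Replicate numbers did not pair the mice (correlations of same-numbered libraries -0.32 to 0.304, median -0.00626), and the block took the genes called in control males from 813 to 5. The number of genes called there was 1 to 2973 over the other settings.

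The *Lgr5* difference in control males (0.030) reversed to -0.047 with the replicate block, -0.27 with the length offset, -0.33 with both and -0.28 without *Ptk6*-/- replicate 1 (range -0.28 to 0.27 over the left-out libraries), and it passed in none of these. Of the alternative log2 fold changes behind the report, 692 kept direction and side of the threshold, 93 lost a call, 8 gained one and no others changed sign. The calls lost were those of *Axin2*, *Lrp5*, *Dvl3*, *Ets2*, *Wnt4*, *Stmn1* and *Muc2* in control males and *Tcf7l2* for sex. Sizes could shrink without a change of call, as by limma on log2(FPKM + 1) to 0.30 for *Axin2* in succinate-treated males and -0.17 for averaged *Lgr5*. Depth limited *Ascl2*, *Tnfrsf19* and *Lgr5* in the library of 8080321 counts, where they had 3, 5 and 12 counts.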
